A study of Mus musculus with 16 samples.

Results

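The Myc family is described here by 4 genes, chosen by name: the paralogs Myc, Mycn and Mycl, and Max, the partner all of their proteins need to bind DNA. All 4 are among the 16383 genes of the table, and all 4 passed the filter on low values that left 12907 genes to test (at least 4 libraries at 1 FPKM or above). They were read in undifferentiated spermatogonia, dividing germ cells among which the spermatogenic stem cells are found, isolated from adult mice by FACS. Every mouse had received busulfan at 10 mg/kg, an alkylating agent toxic to proliferating germ cells, and was sampled 10 days later. From day 3 the mice were injected daily for 7 days with 2.5 mg/kg of PD0325901, which blocks the ERK-activating kinase MEK, or with vehicle, which was 10% DMSO in phosphate-buffered saline. The 4 groups of 4 libraries were wild type with vehicle (WT_vehicle), wild type with PD0325901 (WT_PD), Spry4 germline knockout with vehicle (KO_vehicle) and Spry4 germline knockout with PD0325901 (KO_PD). SPRY4 is a Sprouty protein that ERK signalling induces and that dampens the same pathway. The column names carry Spry4ff for the wild-type libraries and GCRT_Spry4KO for the knockout, so Spry4 loss and whatever GCRT stands for cannot be told apart. No group without busulfan was analysed here, and the labels do not say whether replicates are separate animals (each column name has its own SP number, whose meaning is not given), so the tests here weigh differences against library-to-library spread, which may be technical.

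MYC proteins are basic helix-loop-helix leucine zipper transcription factors that pair with MAX and bind the E-box CACGTG. They raise transcription of genes for ribosome production, translation, metabolism and cell cycle entry, while MXD proteins, MNT and MGA compete for MAX and oppose them. ERK signalling is known to lengthen the life of the MYC protein, a step that transcript levels do not show. In the testis, Mycn and Myc have been placed downstream of growth factor signals that sustain spermatogonial stem cells.

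The genes lie apart from each other in the mouse genome (GRCm38, GENCODE M21). Myc (ENSMUSG00000022346) spans 61985391 to 61990374 on the plus strand of chromosome 15. Mycn (ENSMUSG00000037169) spans 12936093 to 12941914 on the minus strand of chromosome 12, and Max (ENSMUSG00000059436) lies on the same chromosome and strand, from 76937269 to 76962201. Mycl (ENSMUSG00000028654) spans 122995652 to 123002485 on the plus strand of chromosome 4. None of the 4 shares exon sequence with another annotated gene.

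Promoters are shown for Mycn, the member with motif matches, for Max, the steadiest member, and for the antagonists Mxd4 and Mnt, which had the highest levels among the network genes that carry the site that MYC and MAX bind. Sequences are from the RefSeq promoter table (GRCm38.p6), which held 3 of the 4 members and all 9 genes of the MAX network list used below. They run 5′ to 3′ on the gene's strand, within the 250 bases before the RefSeq start and upstream of every exon annotated there. Capitals mark an E-box (CACGTG) or an E2F motif (TTTCCCGC or TTTGGCGC), found on either strand.
Mycn (chr12:12941915-12942086, minus strand): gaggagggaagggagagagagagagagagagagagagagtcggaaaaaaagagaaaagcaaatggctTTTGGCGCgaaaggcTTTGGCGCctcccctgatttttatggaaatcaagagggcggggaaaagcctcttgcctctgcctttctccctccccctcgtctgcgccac
Max (chr12:76962249-76962498, minus strand): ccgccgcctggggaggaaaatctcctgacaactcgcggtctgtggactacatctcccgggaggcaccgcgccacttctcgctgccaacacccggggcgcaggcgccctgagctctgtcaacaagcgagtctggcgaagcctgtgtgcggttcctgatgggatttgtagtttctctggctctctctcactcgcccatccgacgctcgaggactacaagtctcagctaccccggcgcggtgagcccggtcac
Mxd4 (chr5:34187721-34187960, minus strand): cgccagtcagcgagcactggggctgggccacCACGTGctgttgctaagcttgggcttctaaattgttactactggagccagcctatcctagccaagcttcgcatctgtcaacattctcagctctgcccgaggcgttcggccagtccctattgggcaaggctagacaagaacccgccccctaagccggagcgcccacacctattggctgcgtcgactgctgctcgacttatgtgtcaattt
Mnt (chr11:74830674-74830919, plus strand): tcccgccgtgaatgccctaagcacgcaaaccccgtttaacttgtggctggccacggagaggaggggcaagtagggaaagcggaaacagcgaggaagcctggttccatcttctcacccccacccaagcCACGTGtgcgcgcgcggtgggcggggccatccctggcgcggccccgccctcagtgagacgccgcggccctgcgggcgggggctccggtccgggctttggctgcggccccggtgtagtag
The Mycn promoter held 2 E2F matches, which began 183 and 168 bases before the start. An E2F match occurred in 1.30% of the 32851 promoters in the table and in 3.09% of the 9736 tested genes with a promoter. The ETS core CCGGAA and the cyclic AMP response element TGACGTCA were not in the Mycn, Mycl or Max windows, and neither was the E-box. The full Mycl window lies within its annotated gene and is not printed. The E-box was in the window of 4 of 9 MAX network genes (Mlx, Mlxipl, Mnt and Mxd4), against 10.4% of tested genes. A match describes the letters only.

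Max had the highest mean level and the smallest spread of the 4 members. FPKM counts fragments per kilobase of exon scaled to library size, so levels can be compared between genes. Max levels were 22.02, 22.14, 22.07 and 21.50 FPKM in WT_vehicle replicates 1 to 4 and 21.4, 20.8, 23.3 and 21.8 FPKM in WT_PD. In the knockout they were 21.29, 22.02, 21.47 and 21.06 FPKM with vehicle and 19.6, 21.7, 20.2 and 21.4 FPKM with PD0325901. The highest library was 1.18-fold above the lowest, and 0.302% of the 12907 tested genes varied less (SD of log2 level over the 16 libraries). When each library was rescaled to the same total, as TPM, 4.18% of tested genes varied less than Max.

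Myc varied most. Its levels were 13.43, 18.01, 18.28 and 10.28 FPKM in WT_vehicle and 6.75, 6.78, 34.4 and 18.3 FPKM in WT_PD. In the knockout they were 9.12, 12.3, 5.80 and 23.4 FPKM with vehicle and 12.5, 8.25, 16.4 and 20.7 FPKM with PD0325901. The lowest and the highest library of all 16 (KO_vehicle 3 and WT_PD 3) differed 5.94-fold, WT_PD 3 stood 5.10-fold above WT_PD 1 within its own group, and 95.3% of tested genes varied less. The spread was thus within groups, and all 4 groups overlapped.

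Mycn, the paralog best known from neural and embryonic progenitors, varied less. Its levels were 10.3, 10.2, 8.98 and 7.98 FPKM in WT_vehicle and 12.64, 13.998, 8.65 and 10.7 FPKM in WT_PD. In the knockout they were 9.29, 12.3, 10.2 and 5.78 FPKM with vehicle and 11.3, 12.6, 12.3 and 10.3 FPKM with PD0325901. The 4 KO_PD libraries were the most alike, and KO_vehicle 4 was the lowest of all 16.

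Mycl, first described in small cell lung cancer, was the lowest member in 16 of 16 libraries. Its levels were 4.78, 3.73, 3.71 and 3.09 FPKM in WT_vehicle and 6.45, 4.87, 2.59 and 5.40 FPKM in WT_PD. In the knockout they were 3.55, 4.56, 4.24 and 2.698 FPKM with vehicle and 3.27, 5.96, 5.19 and 3.77 FPKM with PD0325901. Mycn and Mycl spanned 2.42-fold and 2.49-fold over the 16 libraries, and Mycl was lowest in WT_PD 3, the library where Myc was highest.

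**Figure D1:**
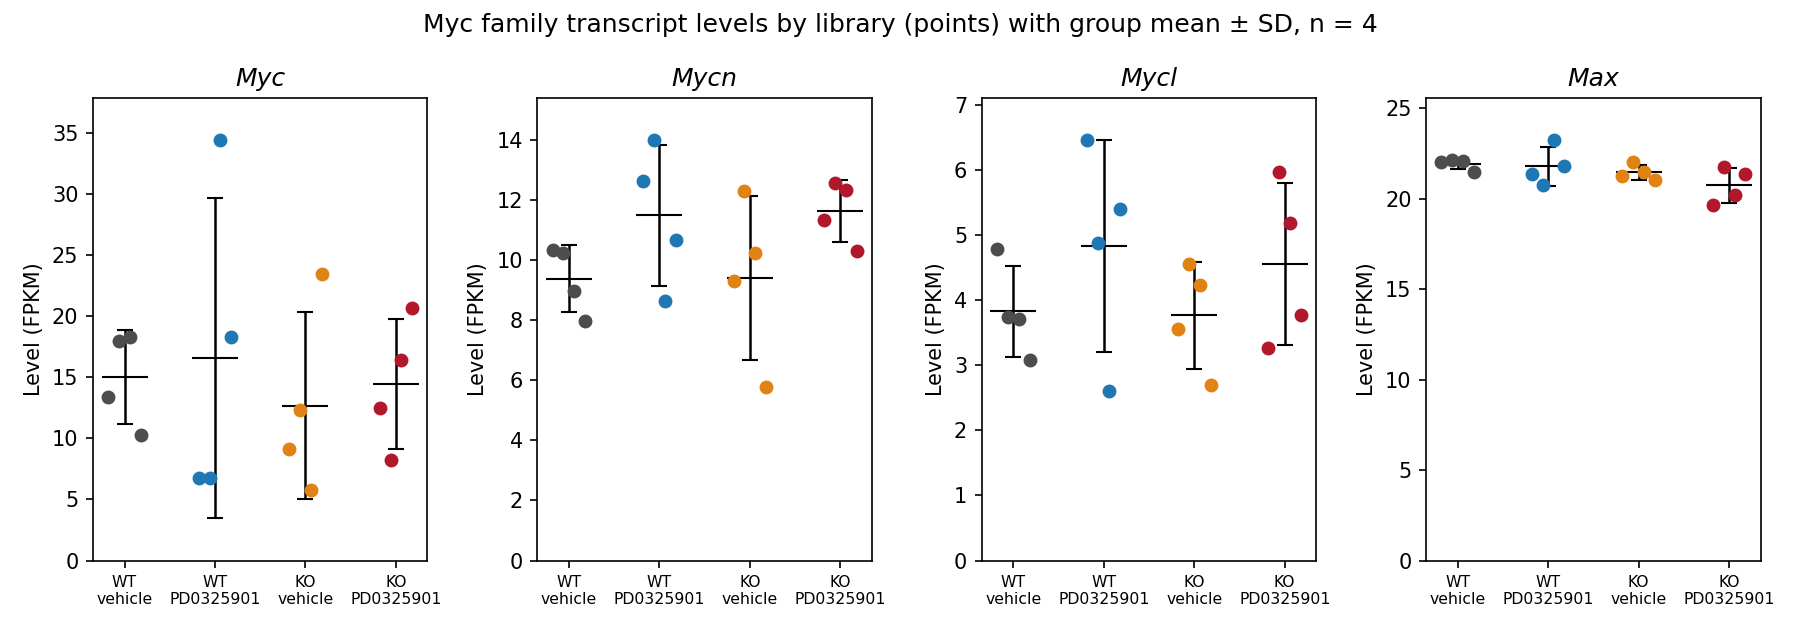
FPKM of Myc, Mycn, Mycl and Max (vertical axes, from 0, a different scale for each gene) in the 4 groups. Points are libraries, horizontal bars are group means and error bars are SD (n = 4); the Max libraries sit between 19.6 and 23.3 FPKM, while Myc in WT_PD runs from 6.75 to 34.4 FPKM.

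The order of the members was not fixed. It ran Max, Myc, Mycn, Mycl from high to low in 9 libraries and Max, Mycn, Myc, Mycl in 5. In the remaining 2, WT_PD 3 and KO_vehicle 4, Myc stood above Max. Mycn exceeded Mycl 1.96-fold to 3.47-fold in every library, whereas the ratio of Myc to Mycn ran from 0.485 to 4.06. Myc and Mycn, the neighbours in the order, therefore did not separate beyond their spread, while Mycl lay below both and Max above Mycn in every library. Of the summed FPKM of the 3 paralogs, Myc made up 26.1% to 75.4%. The sum itself was 28.2 ± 4.80 FPKM in WT_vehicle, 32.9 ± 9.45 in WT_PD, 25.8 ± 5.59 in KO_vehicle and 30.6 ± 4.28 in KO_PD (SD, n = 4 each), so the 4 groups overlapped.

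**Figure D2:**
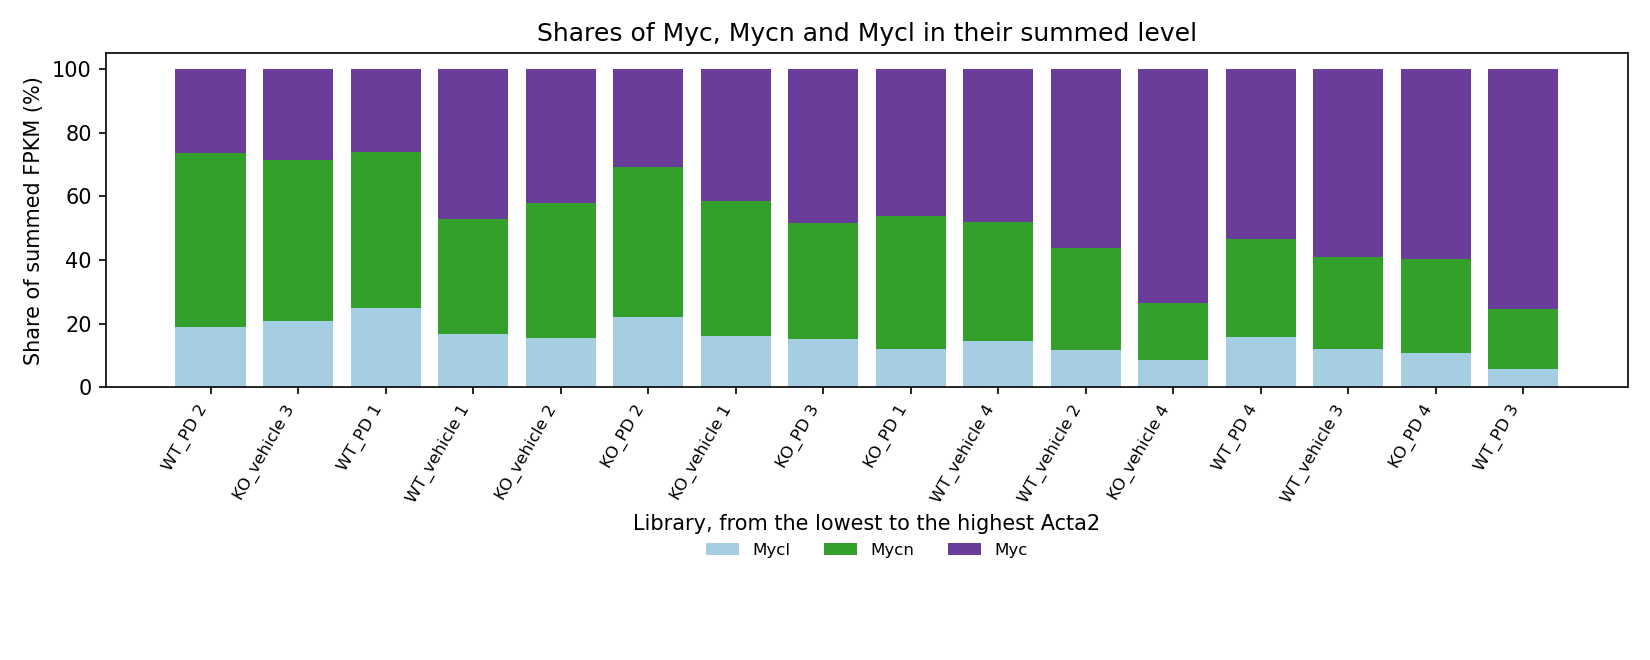
Shares of Myc, Mycn and Mycl in their summed FPKM (vertical axis, %), with the 16 libraries ordered by their level of Acta2, smooth muscle actin. Myc makes up 26.1% of the sum in WT_PD 1, near the low end, and 75.4% in WT_PD 3, which has the most Acta2.

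The sorted cells carried transcripts of other cells in unequal amounts, and Myc rose with some of these, as described below. Undifferentiated spermatogonia markers were measured for 13 of 13 genes, with sums of 546 to 859 FPKM. All 11 listed markers of peritubular myoid cells, the contractile cells around the tubule, were present in addition. Their summed level ran from 2618 to 8130 FPKM in WT_vehicle, 1227 to 12505 in WT_PD, 1447 to 7462 in KO_vehicle and 3523 to 10220 in KO_PD, and no marker was under 1 FPKM in all libraries. Spermatid markers summed to 2962 FPKM in KO_vehicle 3 and to at most 146 FPKM in the other libraries. Of 8 Sertoli markers 5 were measured, with Sox9 and Cldn11 under 1 FPKM in every library, and the 6 macrophage and leukocyte markers summed to at most 11.2 FPKM with Ptprc, Csf1r and Adgre1 under 1 FPKM throughout. The 7 endothelial markers summed to 18.6 to 61.0 FPKM and the 2 measured of 6 Leydig markers to 2.72 to 24.7 FPKM (Star under 1 FPKM throughout), and both sums were highest in WT_PD 3. Spry4 itself was 22.1 ± 1.66 FPKM in WT_vehicle and 21.5 ± 4.89 in WT_PD, against 11.01 ± 3.13 in KO_vehicle and 12.9 ± 4.71 in KO_PD (SD, n = 4 each). Which exons the knockout removes is not given in the sources used here. Smallest divisors that turn the values into whole reads ran from 23366500 to 36631900. The reads they give over the listed genes exceed the divisor in 5 of 16 libraries, so they are not plain library totals, and a multiple of a divisor would also give whole reads. On these divisors there are 513 to 3019 reads on Myc, 547 to 1330 on Mycn, 313 to 796 on Mycl and 1862 to 2866 on Max.

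Myc rose with the contractile transcripts, and Mycn and Mycl rose with each other and with the spermatogonial markers. Over the 16 libraries, 22 relations were computed between the members and between each member and the mean log2 level of 4 marker lists, and 5 passed an adjusted p of 0.05 by r and 6 by rho (two-sided permutation tests, 100000 resamples, Benjamini-Hochberg over the 22). List means used tested genes only, and for the Sertoli list these were 2 of the 8 listed. Mycn and Mycl correlated with r = 0.781 (adjusted permutation p = 0.00099) and Spearman's rho = 0.844 (adjusted permutation p = 0.00088). Without WT_PD 2 and KO_vehicle 4, the libraries farthest from the Mycn median, r was 0.791. The relation was as strong with the 4 group means removed (r = 0.750), and r was 0.661 with the peritubular and spermatid levels removed.

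Myc against the peritubular list gave r = 0.857 and rho = 0.874 (adjusted permutation p = 0.00022 and 0.00044), and r = 0.816 without the 2 farthest libraries, WT_PD 1 and WT_PD 2. Against the undifferentiated list Myc gave r = -0.853 and rho = -0.835 (adjusted permutation p = 0.00022 and 0.00088), and r = -0.777 without WT_PD 1 and WT_PD 3. Mycn and Mycl went the other way, with r = 0.696 and 0.794 against the undifferentiated list (adjusted permutation p = 0.0158 and 0.000953; rho = 0.759 and 0.676, adjusted permutation p = 0.00539 and 0.0188), and r = 0.777 and 0.647 without WT_PD 1 and WT_PD 3. Within the 8 lower and the 8 higher library numbers, as the column names number the libraries, these 5 relations kept their sign, from 0.628 and 0.822 for Mycn with Mycl to 0.701 and 0.914 for Myc with the peritubular list. For the undifferentiated list the same 2 sets gave -0.734 and -0.857 with Myc, 0.800 and 0.459 with Mycn, and 0.907 and 0.640 with Mycl. The peritubular and undifferentiated lists went opposite ways in the extreme libraries. WT_PD 3 had the highest peritubular sum (12505 FPKM) and the lowest undifferentiated sum (546 FPKM). WT_PD 1, with the highest undifferentiated sum (859 FPKM), had a peritubular sum of 1582 FPKM. Relations with the undifferentiated list were not computed with the peritubular level removed, so ties to the 2 lists cannot be told apart. In sorted bulk samples, fewer cells of a type and less RNA per cell cannot be told apart.

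Myc and Mycn were inversely related (r = -0.516, rho = -0.518, adjusted permutation p = 0.0966 and 0.118), as were Myc and Mycl (r = -0.549, rho = -0.459, adjusted permutation p = 0.0745 and 0.185). Neither pair passed the threshold. With the peritubular and spermatid levels removed, r was -0.10 for Myc with Mycn and -0.30 for Myc with Mycl. Without KO_vehicle 3 and WT_PD 3, the farthest on Myc, the values were -0.556 and -0.469. Within the lower and the higher 8 library numbers r was -0.593 and -0.249 for Mycn, and -0.616 and -0.365 for Mycl. Against the peritubular list, Mycn gave r = -0.587 (adjusted permutation p = 0.055) and rho = -0.676, which passed (adjusted permutation p = 0.0188). Mycl gave r = -0.586 and rho = -0.588 (adjusted permutation p = 0.0566 and 0.0591). None of the 7 relations of Max passed on the deposited values, and 5 of 7 passed with the opposite sign after scaling to TPM: Max with Mycl gave r = -0.119 and 0.716.

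**Figure D3:**
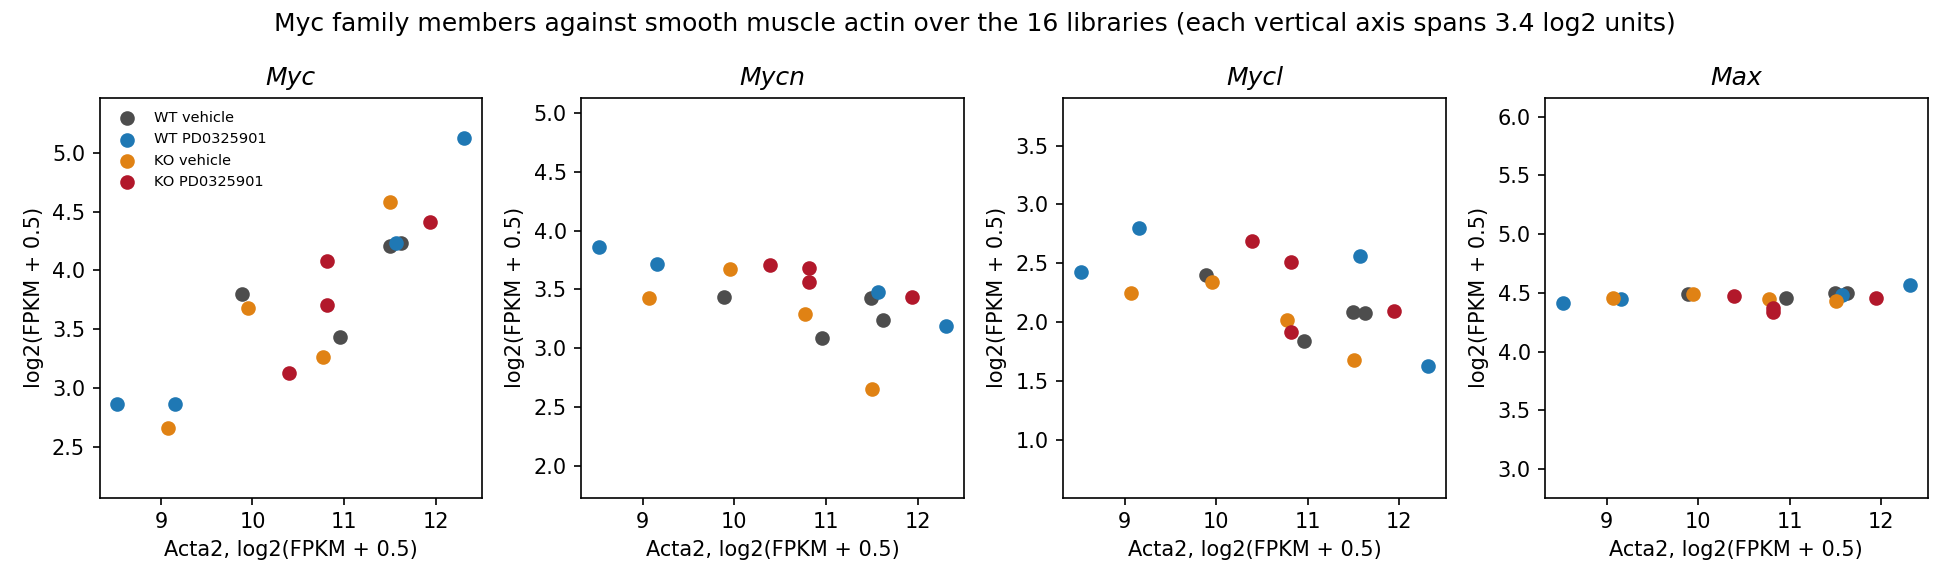
Each member against Acta2 over the 16 libraries, both axes in log2(FPKM + 0.5), with every vertical axis spanning the same range and colours for the 4 groups. Myc climbs with Acta2 (r = 0.879), Mycn and Mycl decline (r = -0.578 and -0.587), and Max stays level.

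The genes most like each member were ranked by Pearson r over the 16 libraries among the tested genes, as a description. All points share the libraries and their makeup. Closest to Myc were Tuba1a (r = 0.963), an alpha tubulin, Rgcc (0.962), Myd88 (0.961), the adaptor of Toll-like receptors, Zfp36l1 (0.960), an RNA-binding protein that destabilises mRNA, and Slc25a20 (0.959), a mitochondrial carnitine carrier. These 5 genes also correlated with Acta2, at r = 0.845 to 0.885. Closest to Mycn were Sall1 (0.893), a zinc finger transcription factor, Nhp2 (0.884), a subunit of small nucleolar ribonucleoproteins, Camkk2 (0.878), Krt24 (0.875) and Zswim5 (0.871). Sall1 was also among the 5 closest to Mycl (0.907), beside Irf8 (0.927), Zdhhc23 (0.911), Scd3 (0.897) and Foxr1 (0.895). Among the closest to Max were Tmem70 (0.832), Carnmt1 (0.788), Egln3 (0.787) and Snw1 (0.787).

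No member changed with genotype or inhibitor past the threshold. In each of the 7 comparisons 0 of 4 members and 0 of 12907 genes (0%) had an adjusted p under 0.05 by limma on log2(FPKM + 0.5) with Benjamini-Hochberg adjustment. At an unadjusted p under 0.05 the test returned 251 genes (1.94%) for the knockout against wild type with vehicle, 605 (4.69%) for the same with PD0325901, 115 (0.891%) for PD0325901 against vehicle in the wild type, 382 (2.96%) in the knockout and 561 (4.35%) and 238 (1.84%) for genotype and inhibitor pooled, and 1.71% of genes for the interaction. The libraries of the groups overlapped for 4 of 4 members in all comparisons of 2 groups, where 1.46%, 2.28%, 0.659% and 1.7% of tested genes did not overlap, in the order of the first 4 comparisons. Spry4 had the lowest p of all genes in the pooled genotype comparison (log2 difference -0.88, SE 0.17), with an adjusted p of 0.998 by limma.

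For Myc the log2 difference of knockout from wild type was -0.37 with vehicle (95% interval -1.44 to 0.69) and 0.06 with PD0325901 (interval -1.01 to 1.12), so a 2.18-fold difference stays within the second interval. By mean FPKM, knockout Myc was the lower with either treatment, so the scales differ in sign with PD0325901. The difference with vehicle ran from -0.72 to -0.075 with each library left out, and it was -0.00043 once the peritubular and spermatid levels of each library were in the model. Mycn differed by -0.04 and 0.04 (intervals -0.44 to 0.37 and -0.37 to 0.44), and Mycl by -0.03 and -0.05 (intervals -0.55 to 0.49 and -0.57 to 0.46). Max differed by -0.03 and -0.07, within -0.14 to 0.08 and -0.18 to 0.04. The intervals thus bound a change of Max far more tightly than a change of Myc. Pooled over treatments the genotype differences were -0.16 for Myc, 0.00 for Mycn, -0.04 for Mycl and -0.05 for Max.

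With PD0325901, Myc, Mycn and Mycl had higher mean FPKM in both genotypes. For Myc in the wild type the median went the other way, at 12.6 FPKM in WT_PD against 15.7 in WT_vehicle, and WT_PD 3 alone was at 34.4 FPKM. Mycn was 9.38 ± 1.12 FPKM in WT_vehicle and 11.5 ± 2.34 in WT_PD, and 9.40 ± 2.72 in KO_vehicle and 11.6 ± 1.04 in KO_PD (SD, n = 4 each). Its log2 differences were 0.26 in the wild type and 0.34 in the knockout, and 0.30 pooled over genotypes (SE 0.13, 95% interval 0.01 to 0.59). The pooled value had an unadjusted limma p of 0.0407 and an adjusted p of 0.99993, so it failed the correction. Of 8 PD0325901 libraries, 7 lay above the vehicle median, and 180th of 12907 was the rank of Mycn by p. For Mycl the group means were 3.83 ± 0.702, 4.83 ± 1.63, 3.76 ± 0.823 and 4.55 ± 1.24 FPKM in WT_vehicle, WT_PD, KO_vehicle and KO_PD, with a pooled log2 difference of 0.24 (interval -0.12 to 0.61) and 6 of 8 libraries above the vehicle median.

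The group means of Myc were 14.999 ± 3.86, 16.6 ± 13.1, 12.7 ± 7.65 and 14.5 ± 5.33 FPKM in the same order. On the log2 scale its differences with the inhibitor were -0.15 in the wild type (interval -1.21 to 0.92), against the order of the means, and 0.28 in the knockout (interval -0.78 to 1.35). Max differed by -0.01 and -0.05. The difference between the genotypes in the response to PD0325901 (the interaction) was 0.43 for Myc, 0.07 for Mycn, -0.02 for Mycl and -0.04 for Max, and every interval included 0.

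Adding the peritubular and spermatid levels of each library to the model narrowed the intervals of the paralogs and moved most of their differences. The pooled difference of Mycn with PD0325901 was then 0.29 (SE 0.094, interval 0.09 to 0.50, limma adjusted p = 0.942), with 0.45 in the knockout (SE 0.13, interval 0.16 to 0.74, limma adjusted p = 0.755) and 0.14 in the wild type (interval -0.16 to 0.43, limma adjusted p = 0.743). The interaction for Mycn went from 0.07 to 0.32 (interval -0.10 to 0.73). The SE of the pooled Myc difference fell from 0.35 to 0.18, and the difference was 0.02. Several differences turned sign under these terms, among them the interaction for Myc, from 0.43 to -0.26, and Myc with PD0325901 in the knockout, from 0.28 to -0.11.

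**Figure D4:**
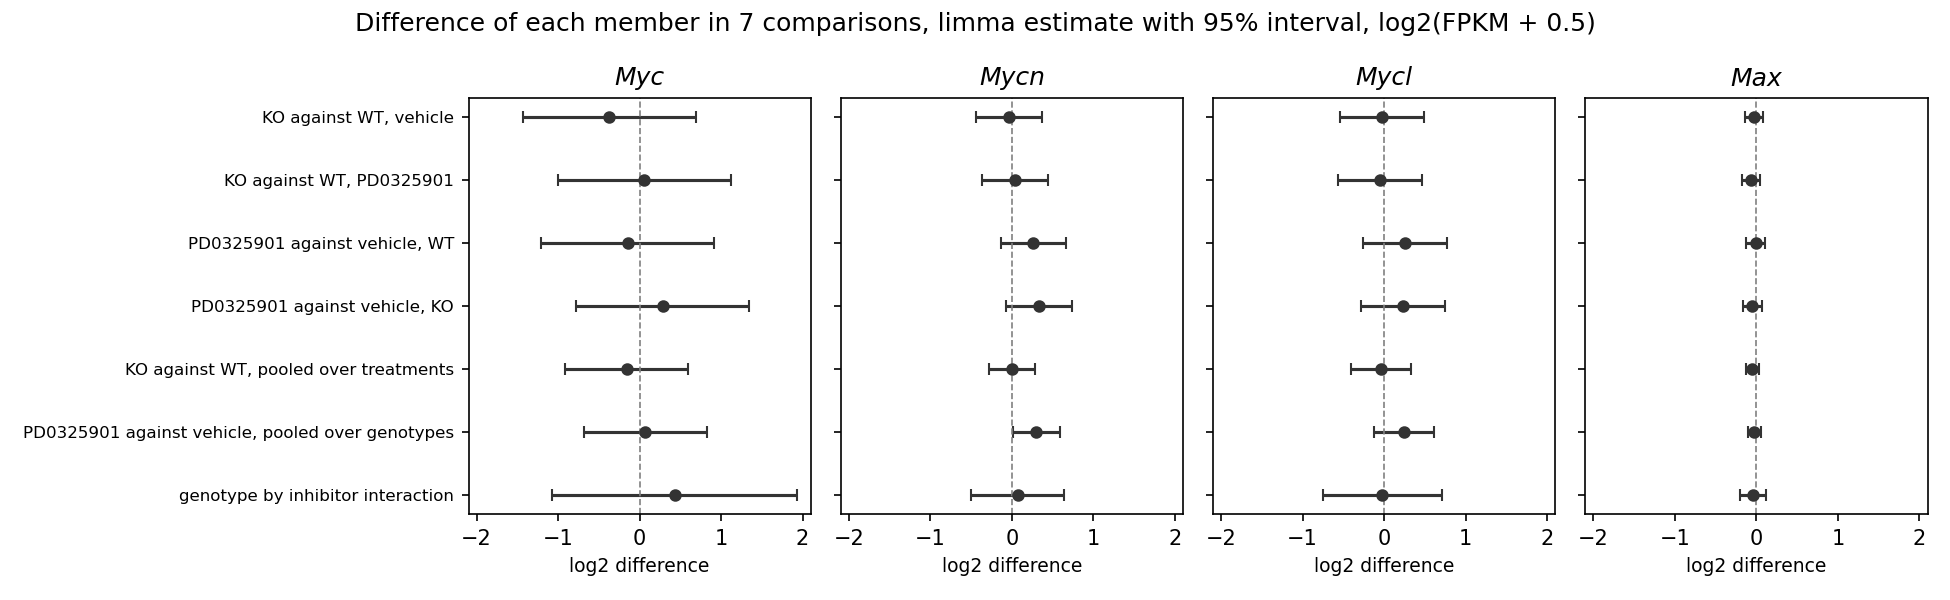
limma log2 differences with 95% intervals (horizontal axes, log2(FPKM + 0.5) scale) for the 4 members in 7 comparisons. Every interval crosses 0 except that of Mycn for PD0325901 pooled over genotypes (0.01 to 0.59), and the intervals of Max are the narrowest.

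Of 6 ERK output genes set beside the members, 3 were higher and 3 lower with PD0325901 pooled over genotypes (median -0.04, from -0.36 to 0.13). By genotype, 1 of 6 was higher in the wild type and 3 of 6 in the knockout. Egr1, an immediate early gene of the ERK pathway, was 156 ± 29.7 FPKM in WT_vehicle and 103 ± 10.0 in WT_PD, and 121 ± 41.0 in KO_vehicle and 106 ± 15.2 in KO_PD (SD, n = 4 each), with a pooled log2 difference of -0.36 (SE 0.14, limma adjusted p = 0.99993). Etv5, an ETS factor of stem cell self-renewal, differed by -0.16 and Dusp6, an ERK phosphatase, by -0.14 in the same comparison, and Spry4 by 0.07. None of the 6 passed the threshold.

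The relatives and partners ran from below Mycl to above Max. Bmyc, a shorter relative that lacks the DNA-binding domain, was at 1.96 to 9.33 FPKM and correlated with Myc (r = 0.828) and with Acta2 (r = 0.884). Of its annotated exon length 62.8% is shared with an antisense transcript that is not in the table, and whether the counting used strand is not given in the sources used here. Mycs was not analysed here. Mga, a MAX partner that also carries a T-box, was the highest network gene at 32.2 FPKM on average (22.7 to 39.8). Mnt and Mxd4, which pair with MAX and repress, averaged 15.5 and 15.3 FPKM, as much as Myc at 14.7.

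The genes of the MAX network differed in the paralog with which they correlated. Mxi1 (r = 0.898), Mnt (0.8496), Mxd4 (0.775), Mlx (0.762) and Mxd1 (0.751) correlated positively with Myc over the 16 libraries, and also with Acta2 (r = 0.689 to 0.887). An r above 0.7 with Myc was common, as 23.7% of all tested genes had it, against 1.46% with Mycn and 3.51% with Mycl. Mga went against Myc (r = -0.680) and Acta2 (-0.772) and was positive with Mycl (0.549) and Mycn (0.470). Mlxip, which pairs with MLX in glucose sensing, was positive with Mycl (0.663) and near 0 with Myc (0.079), and Mlxipl, its liver-type relative, gave 0.564 with Mycl and -0.443 with Myc. Mxd3, which is linked to proliferation, was the lowest at 1.91 FPKM on average, with r = -0.252 with Myc and 0.375 with Mycl. The median r of the 9 genes with Myc was 0.75, and it was 0.23 with the peritubular and spermatid levels removed and -0.14 after TPM scaling, where 4 of 9 were above 0. After that scaling 34.1% of all tested genes were above 0 with Myc. Mlx shares 19.3% of its exon length with Psmc3ip on the opposite strand. Pooled over genotypes, 6 of 9 network genes were higher with PD0325901 (median 0.04, against 0.01 over all tested genes), and 0 of 9 passed the threshold. The largest was Mlxip (0.14, limma adjusted p = 0.99993). In the pooled genotype comparison 4 of 9 were higher, and 0 of 9 passed.

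Textbook MYC target genes were set against each paralog, as r over the 16 libraries. On the deposited values the ribosome biogenesis list went with Mycn and Mycl and against Myc. With Mycl, 25 of 25 genes had r above 0 (median 0.63), and with Mycn 25 of 25 (median 0.46), while with Myc it was 0 of 25 (median -0.59). Over all tested genes, 46.8%, 45.9% and 51.5% had r above 0 with Mycl, Mycn and Myc, and the medians were -0.06, -0.07 and 0.04. Nucleolin (Ncl), a major nucleolar protein, gave r = 0.677 with Mycl, 0.671 with Mycn and -0.728 with Myc. Nucleophosmin (Npm1) gave 0.613, 0.632 and -0.606, and Ddx18, a nucleolar helicase, -0.847 with Myc. The genes share 16 libraries, so the list is not 25 independent observations, and the peritubular level moved with Myc (r = 0.857).

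The list counts were repeated under other settings. With the peritubular and spermatid levels removed, 25 of 25 ribosome biogenesis genes had r above 0 with Mycl (median 0.54), 21 of 25 with Mycn (median 0.32) and 1 of 25 with Myc (median -0.30). Without WT_PD 3 and KO_vehicle 3 the counts were 25, 23 and 6. After TPM scaling they were 25, 25 and 0, beside 66.7%, 67.8% and 34.1% of all tested genes. Max then also had 25 of 25 above 0 (median 0.77, with 0.81 for Mycl and 0.73 for Mycn), beside 68.0% of all tested genes. The TPM counts thus did not set Mycn and Mycl apart from Max. For Max the count was 8 of 25 on the deposited values and 11 with the peritubular and spermatid levels removed. It was 16 without WT_PD 3 and KO_vehicle 3. None of the 20 promoters of the list that could be searched held the E-box, where 10.4% of tested genes had it. With 20 promoters, 0 cannot be told apart from that share. Only the 250 bases before the RefSeq start were searched, and some of these windows overlap annotated exons, so sites elsewhere would be missed.

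**Figure D5:**
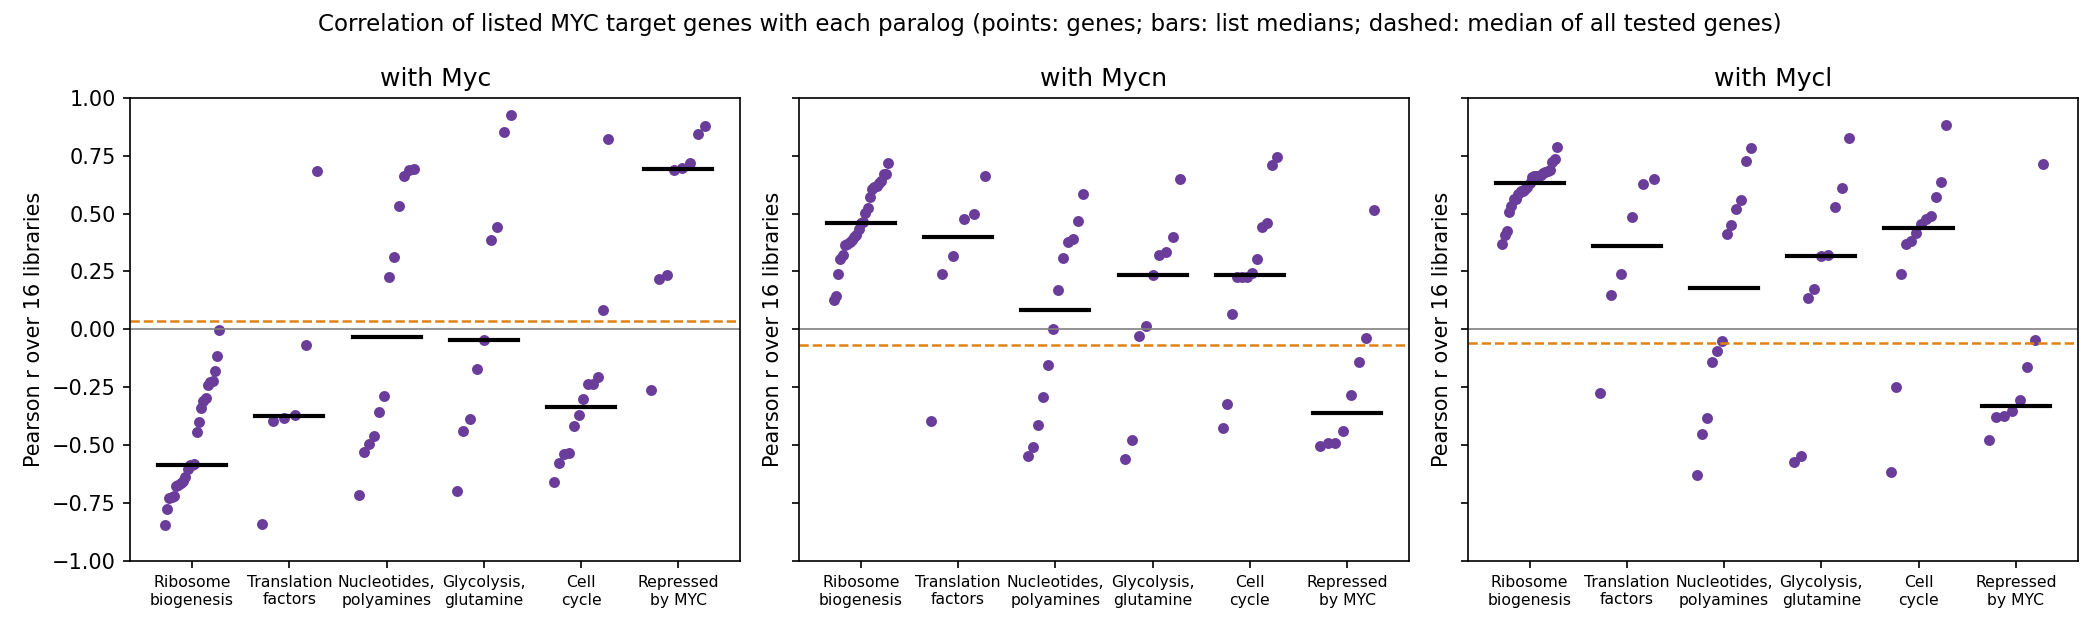
Pearson r over 16 libraries (vertical axes) between each listed gene (points) and Myc, Mycn or Mycl, in 6 lists, with list medians as black bars and the median of all tested genes dashed. The ribosome biogenesis points lie below 0 for Myc and above 0 for Mycn and Mycl, and the list of genes repressed by MYC lies mostly the other way.

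Genes that MYC is known to repress did the reverse. With Myc, 7 of 8 had r above 0 (median 0.69), among them the growth arrest gene Gadd45g (0.881) and the cell cycle inhibitor Cdkn1a (0.843), whereas Cdkn1c gave -0.262. With Mycn and with Mycl 1 of 8 was above 0, and it was Cdkn1c in both (0.517 and 0.715). Under the peritubular and spermatid terms, 7 of 8 were above 0 with Myc, and 4 and 5 of 8 were above 0 with Mycn and Mycl. Cell cycle targets were above 0 for 10 of 12 with Mycl and with Mycn and for 2 of 12 with Myc. Above 0 with Myc were the D cyclins Ccnd1 (0.821) and Ccnd2 (0.084). Tert, the telomerase reverse transcriptase, gave 0.882 with Mycl, 0.710 with Mycn and -0.580 with Myc. Translation factors were above 0 for 5 of 6 with Mycn and Mycl and for 1 of 6 with Myc, which was Eif4g1 (0.686). Metabolic targets were split: Ldha, lactate dehydrogenase A, and Slc1a5, a glutamine carrier, correlated with Myc (0.928 and 0.853), while Hk2, a hexokinase, correlated with Mycl (0.8286). The genes named here for a high r with Myc also correlated with Acta2. Those values were 0.877 for Ldha, 0.883 for Slc1a5, 0.843 for Gadd45g, 0.875 for Cdkn1a, 0.728 for Ccnd1 and 0.746 for Eif4g1. In nucleotide and polyamine synthesis 6 of 12 genes were above 0 with Myc, 7 of 12 with Mycn and 6 of 12 with Mycl.

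The counts of cofactors depended on the scaling. Of 14 cofactors, 11 had r above 0 with Mycl, 8 with Mycn and 5 with Myc. After TPM scaling the counts were 14, 14 and 0, and with the peritubular and spermatid levels removed 13, 4 and 4. Over all tested genes the shares above 0 with Mycl, Mycn and Myc were 66.7%, 67.8% and 34.1% after TPM scaling. With those levels removed they were 47.8%, 44.6% and 56.6%. Max gave 4 of 14 on the deposited values and 14 of 14 after TPM scaling. Ruvbl1, an ATPase of chromatin complexes, gave 0.782 with Mycl, and Trrap, a scaffold of histone acetyltransferases, -0.732 with Myc. Of 19 turnover genes, 8 were above 0 with Myc, including Gsk3a (0.852), a kinase that marks MYC for degradation, and the ubiquitin ligase Stub1 (0.852), which both had a higher r with Acta2 (0.889 and 0.940). Skp2, another ubiquitin ligase, gave -0.819 with Myc, and the deubiquitinase Usp28 gave -0.771 with Myc and 0.771 with Mycl. With Acta2 they gave -0.886 and -0.786.

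None of the 105 cofactor, turnover, target and repressed genes passed the threshold in either pooled comparison. The genes named next had the lowest p of their list. Pooled over treatments, the cell cycle inhibitor Cdkn1b was 15.2 ± 2.43 FPKM in the knockout and 20.8 ± 5.63 in the wild type (SD, n = 8 each), a log2 difference of -0.41 (limma adjusted p = 0.998). Nop58 differed by -0.19, Ppat by -0.15, Eif4e by -0.15, Eif4a1 by -0.11 and Pa2g4 by -0.10 in that comparison. Slc7a5, an amino acid carrier, was 0.17 higher, E2f1 0.14, Cdkn1c 0.13, the acetyltransferase Kat2a 0.12 and Cad 0.11. Cip2a, a stabiliser of MYC, differed by -0.20, Gsk3b by -0.08 and Cdc25a by -0.06. The ribosome biogenesis list held 12 of 25 genes higher in the knockout (median -0.01, against -0.02 over all tested genes).

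Pooled over genotypes, the RNA helicase Eif4a1 was 101 ± 7.19 FPKM with PD0325901 and 90.6 ± 7.57 with vehicle (SD, n = 8 each), a log2 difference of 0.15 (limma adjusted p = 0.99993). Eno1, enolase, was 0.24 higher, Srm, spermidine synthase, 0.20, Prps2 0.18, Cdkn1c 0.16, Cdkn1a 0.16, Mrto4 0.10 and Bop1 0.10. The SE was 0.34 for Cdkn1a, larger than its difference, and 0.075 for Cdkn1c. Cdk9, the elongation kinase that MYC recruits, was 0.09 higher, E2f2 0.09, Cdk4 0.08, Pkm 0.08, Supt5 0.07, Fbxw7 0.06 and Eif4g1 0.02, and Skp2 differed by -0.10. By list, 15 of 25 ribosome biogenesis genes (median 0.04), 8 of 12 cell cycle targets (0.03), 8 of 9 metabolic targets (0.05), 8 of 8 genes repressed by MYC (0.05), 4 of 6 translation factors (0.01), 12 of 19 turnover genes (0.01), 5 of 12 nucleotide and polyamine genes (-0.0045) and 5 of 14 cofactors (-0.01) were higher with PD0325901. The counts differed by genotype. In the wild type and the knockout, cell cycle targets were higher for 3 of 12 and 11 of 12. Genes repressed by MYC were higher for 4 of 8 and 6 of 8, and metabolic targets for 5 of 9 and 7 of 9. Of all tested genes, 54.0% and 50.5% were higher in these 2 comparisons. Peritubular markers were higher for 0 of 11 in the wild type and 11 of 11 in the knockout, and a link to the list counts was not tested. Over all tested genes 54.4% were higher, with a median of 0.01.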

How the data were processed

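Polyadenylated RNA of 16 libraries was read as FPKM values, a length-scaled unit that the authors deposited for every gene. Per the submitters' processing notes, the tools were FastQC, STAR 2.7.10a and edgeR 4.0.14 and the builds mm10 and GRCm39; which build and step gave the values, the counter, the gene lengths and any scaling are not given. Summed FPKM per library ran from 206108 to 276968, so TPM scaling was an alternative. Of the listed symbols 96.3% matched GENCODE M21. Depth was estimated from the smallest divisor at which values under 100 reads were whole (93.0% to 94.3% within 0.1).

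Genes reaching 1 FPKM in 4 or more libraries entered limma 3.58.1 (R 4.3.3) on log2(FPKM + 0.5), with 1 mean per group over all 16 libraries and a variance trend; p-values were adjusted by Benjamini-Hochberg over 12907 genes. This scale understates the change of low genes. Relations were tested with Python 3.11.15 (numpy 2.4.6) by permutation, on the mean log2 level of each marker list. The limma step was tested on simulated data. Alternatives were pseudocounts 0.1 and 1, other filters and scalings, a replicate block, library-number sets, cell-type terms, no variance trend, groups compared alone and each library left out.

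The named genes were the 4 members, Bmyc, the 9 MAX network genes, reference genes for treatment and cell type, the 2 genes of lowest p per list in each pooled comparison where none passed, and the 5 genes most like each member, without predicted genes; 3 genes that this rule names are not reported here. Genes quoted for their r within a target list were picked after their values were seen. The members and lists were chosen with earlier results of these data known.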

Additional observations from a re-analysis of the deposited data

Results flagged for a closer look

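In 56 sets of 4 libraries, each a gene of the Myc and MAX network in a group, 2 held a library that stood apart from the other three by Dixon's criterion, where chance gives about 1 in 20. Mlx was 13.4 FPKM in WT_PD 3, against 10.2 to 10.5 in the rest of its group; WT_PD 3 also had the highest Myc and the highest contractile level. Mlxipl was 6.40 FPKM in WT_vehicle 1, against 4.15 to 4.49 in the rest of its group.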

How the results depend on the processing

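No member and no gene passed the adjusted threshold under any alternative run, and Mycn with PD0325901 pooled over genotypes stayed between 0.29 and 0.31 under the other settings (unadjusted limma p from 0.00776 to 0.118) and from 0.20 to 0.37 with each library left out. Differences that turned sign did so as follows; their cause was not tested. With peritubular and spermatid terms, the knockout against wild type with PD0325901 became -0.26 (Myc) and 0.16 (Mycl), PD0325901 against vehicle 0.15 (Myc) and 0.0022 (Max) in the wild type and -0.11 (Myc) in the knockout, the interaction -0.26 (Myc) and 0.29 (Mycl), and the pooled genotype difference 0.0132 (Mycl) and 0.0132 (Mycn). The last was 0.000373 with a pseudocount of 1, 0.032 after TPM scaling and 0.020 after quantile normalization. With each library left out in turn, ranges that crossed 0 were -0.17 to 0.17 (Mycn) and -0.12 to 0.10 (Mycl) for the knockout with vehicle; -0.25 to 0.51 (Myc), -0.088 to 0.13 (Mycn) and -0.29 to 0.10 (Mycl) for the knockout with PD0325901; -0.33 to 0.069 (Myc), -0.070 to 0.10 (Mycn) and -0.16 to 0.033 (Mycl) for pooled genotype; -0.60 to 0.16 (Myc) and -0.041 to 0.013 (Max) for PD0325901 in the wild type; -0.014 to 0.63 (Myc) in the knockout and -0.16 to 0.24 (Myc) pooled; and -0.13 to 0.21 (Mycn) and -0.26 to 0.13 (Mycl) for the interaction. The replicate numbers were not taken as pairs: over 24 same-numbered pairs the deviations from the group means correlated from -0.53 to 0.73, and 5 of 16 libraries correlated best with their own number. The replicate block changed no call: Mycn pooled over genotypes was 0.30 with it.

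TPM scaling turned the relations of Max, to -0.66 with Myc, 0.67 with Mycn, 0.72 with Mycl, -0.78 with the peritubular list, 0.084 with the spermatid list and 0.86 with the undifferentiated list, of which all but the spermatid value passed the threshold, and took past the threshold Myc with Mycn (-0.61), Myc with Mycl (-0.61), Mycn and Mycl with the peritubular list (-0.70 and -0.68) and Myc with the spermatid list (-0.52). Within 8 libraries, relations that passed over 16 and did not here were 0.63 and 0.82 for Mycn with Mycl, 0.70 and 0.91 for Myc with the peritubular list, -0.73 and -0.86 for Myc and 0.80 and 0.46 for Mycn with the undifferentiated list (lower and higher library numbers), and 0.64 for Mycl in the higher set; fewer libraries enter these tests. Weak relations turned to 0.37 (Mycl with Max), -0.086 (spermatid list with Mycn) and 0.021 (undifferentiated list with Max) in the lower set and to 0.041 (spermatid list with Mycl), 0.084 (spermatid list with Max) and -0.037 (Sertoli list with Max) in the higher. With peritubular and spermatid levels removed, r was -0.10 for Myc with Mycn, -0.30 for Myc with Mycl and 0.028 for Mycl with Max. With each library left out, Mycn with Mycl stayed at 0.76 to 0.84, Myc with the peritubular list at 0.83 to 0.88, and the undifferentiated list at -0.89 to -0.79 (Myc), 0.67 to 0.74 (Mycn) and 0.73 to 0.88 (Mycl). The counts of ribosome biogenesis genes with r above 0 with Myc were 1 with those levels removed and 6 without WT_PD 3 and KO_vehicle 3; of genes repressed by MYC, 3 and 4 after TPM scaling and 4 and 5 with those levels removed (Mycn and Mycl), and 2 without the 2 libraries (Mycl). Alternatives outside the plan (group means removed, levels removed from relations, the repeated list counts, leave-one-out of relations) were chosen after seeing the data. Mycl reached the fewest estimated reads of the members, 313 to 796 per library, though Myc had fewer in some libraries, such as WT_PD 1 (513 against 728). How much counting error adds to the spread of Mycl was not tested.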
